A study of Homo sapiens with 12 samples.

Results

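The genes of 4 C/EBP transcription factors, CEBPA, CEBPB, CEBPD and CEBPG, were examined for ChIP-exo peak pairs of phosphoserine STAT3 (pSTAT3, antibody to the S727 form) and BCL9. Each gene was taken with 50 kb on each side of its body, and a peak pair was counted when its midpoint fell in that window. These are 4 of 20090 protein-coding genes whose windows were counted the same way. The windows held 691 of 2591856 peak pairs over all 11 lists. The cells were DCIS.COM, a basal breast line that models ductal carcinoma in situ, grown in medium with horse serum. Control (NS) cells carried a non-silencing pLKO.1 construct, and BCL9-KD cells carried a pLKO.1 short hairpin RNA against BCL9, so both had been through lentiviral transduction. There were 3 NS and 2 BCL9-KD libraries for pSTAT3, the same numbers for BCL9, and 1 NS library for CTCF, and the labels call the numbered samples biological replicates. An IgG library was not analysed here.

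On hg19, CEBPA lies on the minus strand of chromosome 19 at 33790840 to 33793440, and CEBPG on the plus strand of the same chromosome at 33864591 to 33873592. CEBPB lies on the plus strand of chromosome 20 at 48807367 to 48809205, and CEBPD on the minus strand of chromosome 8 at 48649475 to 48650726. The starts of CEBPA and CEBPG are 71.2 kb apart, and their windows share a stretch of 28.9 kb, so a peak pair there counts for both genes. Other protein-coding genes reach into 3 of the windows, namely PEDS1 and PEDS1-UBE2V1 beside CEBPB, SPIDR and PRKDC beside CEBPD, and PEPD beside CEBPG. A peak pair near these genes is therefore assigned to a C/EBP gene by distance alone.

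C/EBP proteins are basic leucine zipper factors that bind DNA as dimers, and they control differentiation, acute phase and inflammatory genes. In mammary epithelium C/EBP-beta is needed for the growth and differentiation of the ducts and lobules, and C/EBP-delta is a known STAT3 target during involution and growth arrest. C/EBP-alpha is best known for its part in myeloid, fat and liver cells, where it halts proliferation. C/EBP-gamma is the short family member that lacks a strong activation domain and acts mainly as a dimer partner, also of ATF4. STAT3 is a cytokine-activated factor, BCL9 is a co-activator first described as a partner of beta-catenin, and CTCF is a factor that shapes chromatin loops.

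The lists differ strongly in length, from 24728 to 148755 peak pairs for NS BCL9 and from 98665 to 374089 for NS pSTAT3. The BCL9-KD lists held 95586 and 336493 peak pairs for BCL9 and 415624 and 493174 for pSTAT3. Replicate 1 of NS pSTAT3 and of NS BCL9 and the CTCF library each came from a single sequencing run, and the others from 3 runs. Counts are therefore given per 10000 peak pairs of the list, and as a density per 100 kb of window where genes are compared. The signal of a peak pair is a whole number of tags (read ends) times a step that differs between libraries, and is given in tags. A region is a set of 100 bp windows around the midpoints, merged over the 10 pSTAT3 and BCL9 libraries. Positions are given in kb from the gene's start in the direction of transcription, with negative values upstream.

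The 6 stretches shown are hg19 reference sequence, plus strand, 200 bases around the median midpoint of regions found in 6 or more of the 10 libraries. They are the ones on which the comparison of the members turns: the region of CEBPA found in every library, both regions that CEBPA and CEBPG share, and the regions of CEBPB with the strongest or the co-occurring signal. Capitals mark matches, on either strand, to an AP-1 string (TGANTCA), a TEAD string (GGAATG), a STAT string (TTCNNNGAA), C/EBP strings (TTGCGCAA, TTGCACAA), a C/EBP-ATF string (TTGCATCA) or a CTCF string (AGGTGGCAG). A match is a string of letters and not by itself a binding site, and none of the marked matches overlap.
CEBPA +3.9 kb, chr19:33789474-33789673: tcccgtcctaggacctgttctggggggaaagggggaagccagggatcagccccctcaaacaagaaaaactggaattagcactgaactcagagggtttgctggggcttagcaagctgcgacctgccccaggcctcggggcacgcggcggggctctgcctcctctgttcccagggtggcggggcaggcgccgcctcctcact
CEBPA -37.1 kb, chr19:33830373-33830572: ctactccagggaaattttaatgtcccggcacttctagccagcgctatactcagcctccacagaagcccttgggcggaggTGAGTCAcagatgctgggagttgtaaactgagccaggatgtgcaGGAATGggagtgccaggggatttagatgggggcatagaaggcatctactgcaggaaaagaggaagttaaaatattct
CEBPA -48.2 kb, chr19:33841519-33841718: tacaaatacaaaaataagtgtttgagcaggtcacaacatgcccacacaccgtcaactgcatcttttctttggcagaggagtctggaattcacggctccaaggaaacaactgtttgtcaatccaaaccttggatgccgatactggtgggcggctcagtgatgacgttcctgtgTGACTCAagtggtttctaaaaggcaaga
CEBPB -24.6 kb, chr20:48782640-48782839: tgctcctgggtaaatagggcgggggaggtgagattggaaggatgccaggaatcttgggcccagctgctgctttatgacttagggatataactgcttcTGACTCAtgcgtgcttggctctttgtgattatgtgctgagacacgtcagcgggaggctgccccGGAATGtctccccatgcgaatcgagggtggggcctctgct
CEBPB -26.7 kb, chr20:48780580-48780779: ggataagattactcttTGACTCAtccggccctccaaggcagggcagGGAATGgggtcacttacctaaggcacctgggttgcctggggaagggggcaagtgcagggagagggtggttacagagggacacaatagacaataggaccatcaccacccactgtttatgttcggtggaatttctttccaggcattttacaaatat
CEBPB +46.6 kb, chr20:48853939-48854138: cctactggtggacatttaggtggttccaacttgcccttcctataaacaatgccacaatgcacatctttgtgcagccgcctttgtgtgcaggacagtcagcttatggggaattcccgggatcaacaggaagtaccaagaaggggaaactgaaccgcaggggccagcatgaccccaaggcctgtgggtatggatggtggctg
The stretch at -24.6 kb of CEBPB holds TGACTCA at base 98 and GGAATG at base 161, and the one at -37.1 kb of CEBPA holds TGAGTCA at base 80 and GGAATG at base 124. Those at +3.9 kb of CEBPA and +46.6 kb of CEBPB hold no match.

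CEBPB had the most peak pairs of the C/EBP genes. For pSTAT3 its window held 22, 14 and 48 peak pairs in NS and 60 and 67 in BCL9-KD cells. For BCL9 it held 3, 1 and 32 in NS and 19 and 51 in BCL9-KD cells. Divided by list length and window, the density was lowest in NS BCL9 replicate 2 at 0.397 and highest in NS BCL9 replicate 3 at 2.11 peak pairs per 10000 per 100 kb, with a mean of 1.42 ± 0.490 (SD, n = 10). In every pSTAT3 library CEBPB stood at a percentile of 95.2 or more among all protein-coding windows. It also did so in NS BCL9 replicate 3 and in the BCL9-KD BCL9 libraries. In NS BCL9 replicates 1 and 2, with 3 and 1 peak pairs there, it stood at 84.8 and 70.6.

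CEBPA came next. Its window held 12, 4 and 22 peak pairs in NS and 24 and 29 in BCL9-KD cells for pSTAT3, and 1, 2 and 13, then 14 and 22, for BCL9. Its density was 0.713 ± 0.319 (n = 10), between 0.340 and 1.43, and its median percentile among all windows was 75.2. The highest value was that of BCL9-KD BCL9 replicate 1, which stood well above the others.

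CEBPD and CEBPG were close to a typical gene. For pSTAT3 the CEBPD window held 5, 5 and 4 peak pairs in NS and 18 and 15 in BCL9-KD cells, and for BCL9 2, 0 and 7, then 3 and 13. The CEBPG window held 4, 2 and 14 in NS and 25 and 30 in BCL9-KD cells for pSTAT3, and 1, 0 and 8, then 6 and 17, for BCL9. Mean densities were 0.359 ± 0.196 for CEBPD and 0.380 ± 0.186 for CEBPG (n = 10 each), with median percentiles of 55.0 and 61.4. Both genes were at 0 in NS BCL9 replicate 2, a list in which 50.8% of all protein-coding windows held no peak pair.

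**Figure D1:**
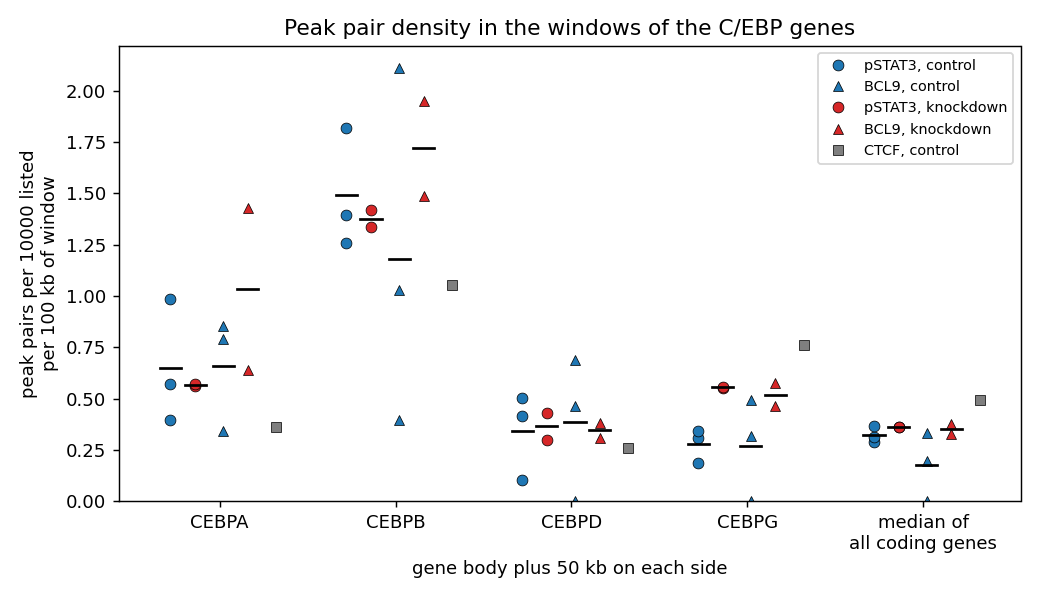
Peak pairs per 10000 listed per 100 kb of window (y axis) for each C/EBP gene and for the median protein-coding gene (x axis). Each point is a library, circles pSTAT3, triangles BCL9 and squares CTCF, blue for NS control and red for knockdown, and bars are group means; CEBPB spans 0.397 to 2.11 in the pSTAT3 and BCL9 libraries, while CEBPD and CEBPG lie near the median gene.

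The 6 pairs of genes were compared within libraries by an exact two-sided sign-flip test over 1024 assignments, whose smallest possible p is 0.00195. CEBPB was denser than CEBPD and CEBPG in 10 of 10 libraries, by 1.06 ± 0.448 and 1.04 ± 0.385 (SD of the differences, exact p = 0.00195 for each). CEBPB was denser than CEBPA in 9 of 10 libraries, with a CEBPA minus CEBPB difference of -0.707 ± 0.434 (exact p = 0.00391). CEBPA was denser than CEBPG in 10 of 10 libraries, by 0.333 ± 0.325 (exact p = 0.00195), and than CEBPD in 8 of 10, by 0.354 ± 0.422 (exact p = 0.0254). The last call was lost at equal list length, at a reach of 20 kb and without any one of 4 libraries (exact p = 0.0508 for each). That of CEBPA against CEBPG was lost at a reach of 100 kb, where the difference was 0.0119. At that reach their windows share a longer stretch, so more peak pairs count for both genes. CEBPD and CEBPG could not be told apart, with a difference of -0.0206 ± 0.226 (exact p = 0.785). Copy number and mappability of these loci were not corrected, and their part in the differences was not tested. All libraries come from the same cell line, so these p-values measure agreement between libraries. The CTCF library put the genes in another order, at 1.05 for CEBPB, 0.763 for CEBPG, 0.362 for CEBPA and 0.259 for CEBPD, against 0.494 for the median gene.

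The order depends on distance from the gene. Of the 317 pSTAT3 and BCL9 peak pairs of CEBPB, 63 lay within 20 kb of the gene and 254 farther out. The share within 20 kb was 19.9% for CEBPB, 37.4% for CEBPG, 44.8% for CEBPA and 56.9% for CEBPD. The median protein-coding gene had 58.0%, without matching for gene length. The gene body counts as within 20 kb, so with evenly spread peak pairs a longer gene has a larger share. The C/EBP genes are 1252 to 9002 bases long, so 58.0% is not a matched reference for them. With windows of 20 kb the sign of the CEBPA minus CEBPB difference turned to 0.385 (exact p = 0.135), and CEBPB minus CEBPD was 0.0675 (exact p = 0.68). CEBPB minus CEBPG was 0.319 at 20 kb (exact p = 0.0195), down from 1.04.

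**Figure D2:**
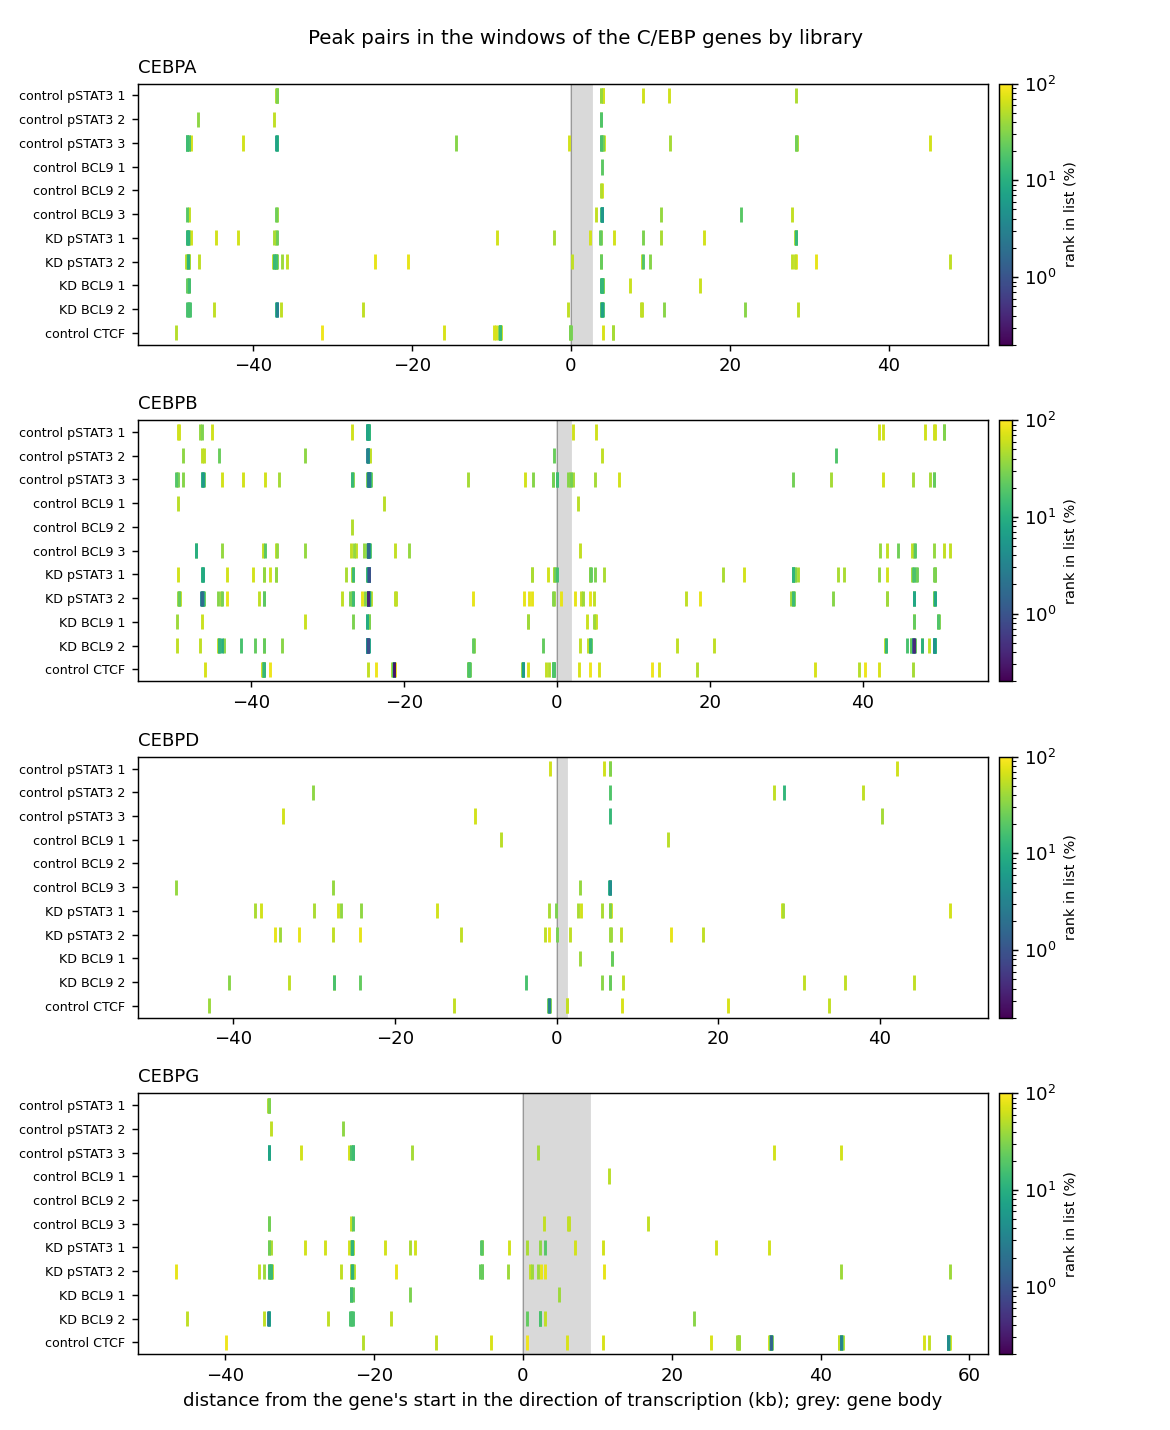
Peak pairs by distance from the start of each C/EBP gene in kb (x axis) in each library (rows), coloured by their rank within the list in percent on a log scale, dark being strongest; grey marks the gene body. In the CEBPB panel the strongest ticks of 7 libraries stand at -24.6 kb, and in the CEBPA panel a column of ticks at +3.9 kb runs through all 11 rows.

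CEBPB had the strongest peak pair of the 4 genes in every pSTAT3 and BCL9 library except NS BCL9 replicates 1 and 2. In NS BCL9 replicate 1 the strongest had 5 tags at CEBPB and 7 at CEBPA, and in replicate 2 both had 10. The leading region of CEBPB lay at -24.6 kb (chr20:48782478-48783094). The region spans the starts of LINC01275 and ENSG00000234698, long noncoding RNA genes that point away from each other, and overlaps exons of both. It held peak pairs in 8 of the 10 libraries and 67 of the 317 peak pairs of CEBPB. The strongest pSTAT3 peak pair there had 15, 20 and 30 tags in NS and 47 and 65 in BCL9-KD cells. The strongest BCL9 peak pair had 30 tags in NS replicate 3 and 15 and 27 in BCL9-KD cells, and NS replicates 1 and 2 had none.

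Within their lists the pSTAT3 peak pairs of this region ranked at the top 7.77%, 3.13% and 2.36% in NS cells and 0.939% and 0.358% in BCL9-KD cells. The shares did not overlap between conditions, but a longer list lowers the share of a given rank. As plain ranks, 9247, 3085 and 8829 in NS and 3902 and 1767 in BCL9-KD cells, the conditions overlapped. How many regions of the genome separate the conditions in this way was not counted, neither by share of the list nor by tags. Tags are also not scaled between libraries, so no gain with knockdown is read from this region. The BCL9 peak pairs ranked at 1.66% in NS replicate 3 and at 9.15% and 0.876% after knockdown. CTCF had 5 tags there, at 56.8% of its list, and its own strongest peak pair of the window stood at -21.3 kb with 151 tags.

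**Figure D3:**
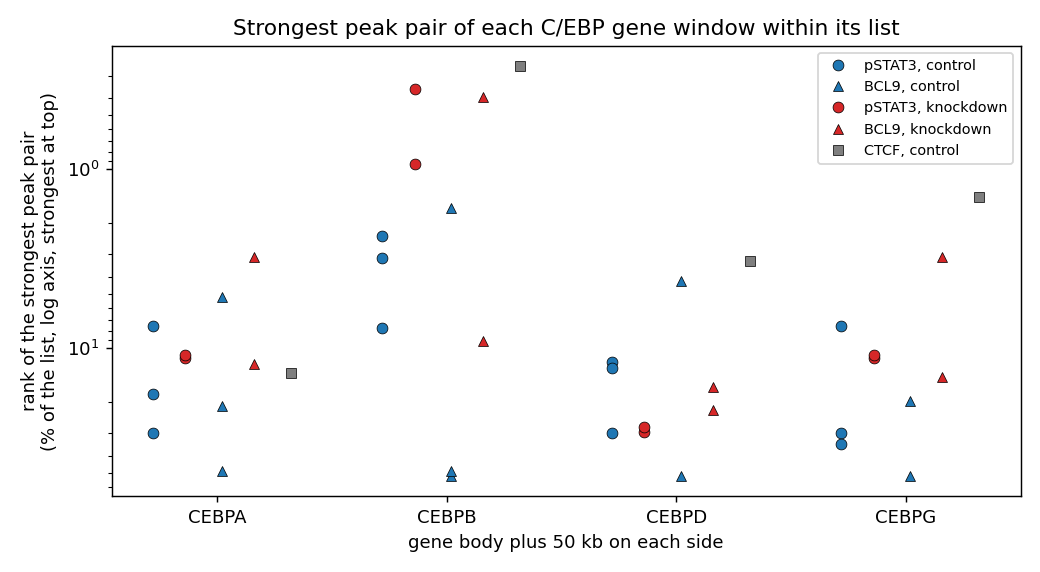
Rank of the strongest peak pair in each gene's window as a percent of its list (y axis, log axis, strongest at top) for each C/EBP gene (x axis). Points are libraries with the marks of the density plot, and windows without a peak pair have no point; the knockdown pSTAT3 libraries reach 0.358% and 0.939% at CEBPB and 10.9% and 11.4% at CEBPA.

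A few other regions of CEBPB recurred. One at -46.3 kb, in an intron of PEDS1, was found in all 5 pSTAT3 libraries with 7, 6 and 20 tags in NS and 18 and 38 in BCL9-KD cells. Among the BCL9 libraries only BCL9-KD replicate 1 had it, with 7 tags. One at -26.7 kb, in an exon of LINC01275, was found in 7 libraries, with 4 to 13 tags. One at +46.6 kb, between genes, was found in 6 libraries and gave the strongest BCL9 peak pair of the CEBPB window after knockdown, with 34 tags in replicate 2, at 0.398% of its list, against 10 tags in replicate 1. At the CEBPB promoter, a region at -0.4 kb within CEBPB-AS1 was found in 4 pSTAT3 libraries, with 8 and 7 tags in NS and 8 and 6 in BCL9-KD cells, in none of the BCL9 libraries, and in CTCF with 30 tags. Next to it, at +0.068 kb in the untranslated region of CEBPB, NS pSTAT3 replicate 3 had 11 tags and BCL9-KD pSTAT3 replicate 1 had 12. At -24.6 kb the strongest pSTAT3 peak pair had more tags than at either promoter region in each of these libraries.

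CEBPA had the one region of the 4 genes that was found in all 10 libraries. It lies at +3.9 kb, beyond the 3' end of the gene and between genes (chr19:33789289-33789798), and held 38 of the 143 peak pairs of CEBPA. Its strongest pSTAT3 peak pair had 6, 9 and 10 tags in NS and 9 and 8 in BCL9-KD cells, and its strongest BCL9 peak pair 7, 10 and 18 in NS and 13 and 12 in BCL9-KD cells. The tags overlapped between conditions for both antibodies. Over the genome 2908 of 1106699 regions, or 0.263%, were found in all 10 libraries, and 85.8% in 1 library only. Of the regions of CEBPA 1 of 45 was found in all 10, and of those of CEBPB, CEBPD and CEBPG 0 of 96, 45 and 47. A single such region is too few to set against the share over the genome. The CTCF library also listed the region at +3.9 kb, with 4 tags at 68.7% of its list.

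CEBPA and CEBPG shared both of their next regions, which lie between the genes in the stretch where the windows overlap. The first, at -37.1 kb of CEBPA and -34.1 kb of CEBPG, had 7, 0 and 17 pSTAT3 tags in NS and 8 and 12 in BCL9-KD cells, and BCL9 tags of 8 in NS replicate 3 and 17 in BCL9-KD replicate 2. The second, at -48.2 kb of CEBPA and -23.0 kb of CEBPG, had 0, 0 and 11 pSTAT3 tags in NS and 15 and 15 in BCL9-KD cells. Its BCL9 tags were 0, 0 and 9 in NS and 12 and 8 in BCL9-KD cells. Neither region had a peak pair in NS BCL9 replicates 1 and 2, the shortest lists, in NS pSTAT3 replicate 2, or in CTCF. The shared stretch held 43.4% of the peak pairs of CEBPA and 57.9% of those of CEBPG, the gene whose product partners other family members. At the CEBPG start itself, of the pSTAT3 and BCL9 libraries only BCL9-KD ones had a peak pair within 1 kb, 1 in each pSTAT3 library and 1 in BCL9 replicate 2. A peak pair within 1 kb in both BCL9-KD and no NS pSTAT3 library was found at 5.22% of all protein-coding starts, and the BCL9-KD pSTAT3 lists are the longest.

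**Figure D4:**
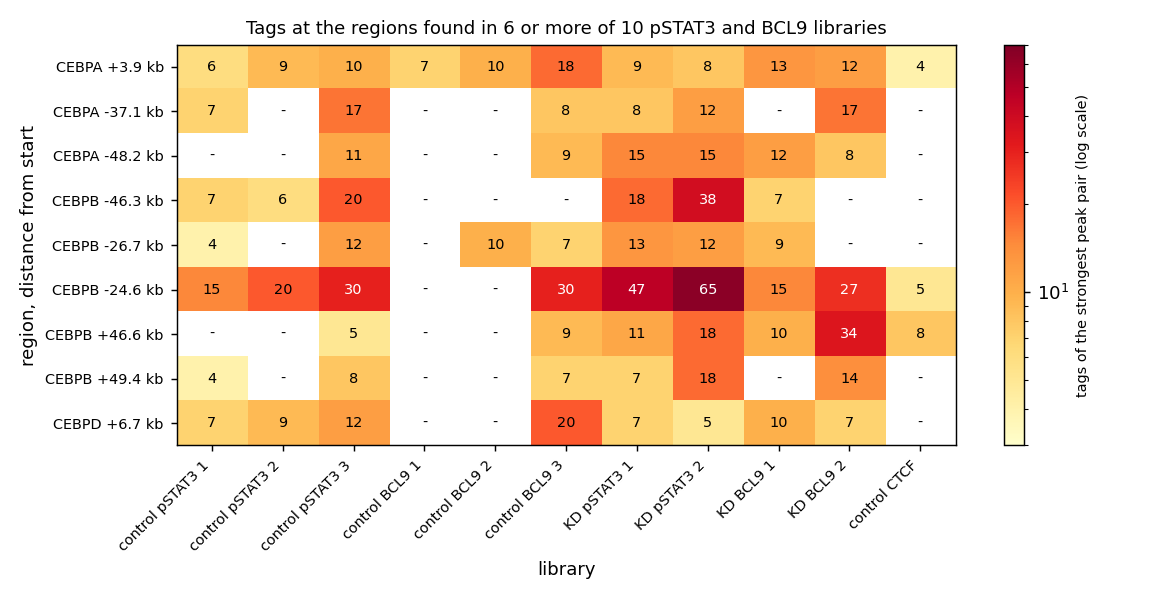
Tags of the strongest peak pair (cell numbers and log colour scale, - for no peak pair) in the 9 regions found in 6 or more of the 10 pSTAT3 and BCL9 libraries (rows, named by gene and distance from its start in kb), for each of the 11 libraries (columns, KD for BCL9-KD). The region at +3.9 kb of CEBPA is filled in every column, and that at -24.6 kb of CEBPB holds the highest value, 65 tags.

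CEBPD, the family member best known as a STAT3 target, had a single recurrent region. It lies at +6.7 kb, beyond the 3' end of CEBPD in an intron of SPIDR, and was found in 8 of 10 libraries. Its pSTAT3 tags were 7, 9 and 12 in NS and 7 and 5 in BCL9-KD cells, and its BCL9 tags 0, 0 and 20 in NS and 10 and 7 in BCL9-KD cells. At the CEBPD start, both BCL9-KD pSTAT3 libraries had a region with 7 tags, at 29.4% and 27.7% of their lists. No NS library had a peak pair in that region, but NS pSTAT3 replicate 1 had one with 4 tags within 1 kb of the start. CTCF had 73 tags at -0.9 kb of CEBPD, where 3 pSTAT3 libraries had 3 to 5 tags.

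Regions of pSTAT3 and BCL9 were then compared within a condition, to find where both antibodies marked the same place. A region was kept when found in at least 2 of the 3 NS or in both BCL9-KD libraries, and called co-occurring when a pSTAT3 region shared at least 1 bp with a BCL9 region. In NS cells CEBPA had 5 pSTAT3 regions and 1 BCL9 region, CEBPB 9 and 1, and CEBPD and CEBPG 1 and 0 each, where 73.1% and 39.4% of all windows had at least 1 pSTAT3 or BCL9 region. Co-occurring regions numbered 2 at CEBPA, both at +3.9 kb, and 1 at CEBPB, at -26.7 kb, and CEBPD and CEBPG had none, where 29% of all protein-coding windows had at least 1. So 2 of the 4 genes had one, a number too small to set against that share. The region at -26.7 kb of CEBPB rests on weak peak pairs. Its BCL9 tags were 10 and 6 in NS replicates 2 and 3, where the lowest of the lists are 9 and 6. Its pSTAT3 tags were 4 in NS replicate 1, the lowest of that list, and 12 in replicate 3.

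In BCL9-KD cells CEBPA had 6 pSTAT3 and 3 BCL9 regions, CEBPB 13 and 3, CEBPD 3 and 0, and CEBPG 5 and 2, beside 84.8% and 58% of all windows with at least 1. Co-occurring regions numbered 2 at CEBPA, at +3.9 and -48.2 kb, 2 at CEBPB, at -24.6 and +46.6 kb, and 1 at CEBPG, which is the -48.2 kb region of CEBPA counted again; CEBPD had none, and 43% of all windows had at least 1. The -24.6 kb region of CEBPB was not called in NS cells because only replicate 3 had a BCL9 peak pair there. The counts rest on single libraries. Without NS BCL9 replicate 3 the NS counts were 0 for all 4 genes. That of CEBPB was also 0 without NS BCL9 replicate 2 or NS pSTAT3 replicate 1 or 3, and that of CEBPA was 1 without NS pSTAT3 replicate 1 or 3. After knockdown, where 1 library of an antibody then sufficed, counts at CEBPB were 6 without BCL9 replicate 1 and 4 without BCL9 replicate 2, at CEBPA 4 without pSTAT3 replicate 1, at CEBPD 1 without either BCL9 replicate, and at CEBPG 3 without pSTAT3 replicate 1 or BCL9 replicate 1.

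In every pSTAT3 library, single pSTAT3 windows around CEBPB and CEBPA overlapped BCL9 windows more often than those of the whole list. Around CEBPB, 68.2%, 50.0% and 41.7% of the NS pSTAT3 windows and 48.3% and 46.3% of the BCL9-KD ones overlapped a BCL9 window of any library of the condition. Over all windows of those libraries the shares were 47.1%, 32.3% and 23.4%, then 33.5% and 31.1%, each lower than at CEBPB. Around CEBPA the shares were 66.7%, 50.0% and 54.5% in NS and 37.5% and 44.8% in BCL9-KD cells, also each higher. Around CEBPD the share was lower than that of the list in 4 of 5 libraries, at 40%, 20% and 25% in NS and 27.8% and 26.7% in BCL9-KD cells. Around CEBPG it was 100%, 0% and 57.1% in NS and 44% and 40% in BCL9-KD cells, higher than the list except in NS replicate 2. The NS shares rest on few windows, 12, 4 and 22 at CEBPA, 5, 5 and 4 at CEBPD and 4, 2 and 14 at CEBPG. Taken the other way, 33.3%, 100% and 53.1% of the NS BCL9 windows of CEBPB overlapped a pSTAT3 window, and 52.6% and 60.8% of the BCL9-KD ones. Their lists had 70.8%, 74.0% and 43.6%, then 55.4% and 35.8%, so NS replicate 1 and BCL9-KD replicate 1 were lower at CEBPB. The shares of NS BCL9 replicates 1 and 2 rest on 3 and 1 windows. Neighbouring peak pairs of a region share their site, so these shares carry no test. The pSTAT3 windows of CEBPB also overlapped CTCF windows more often than the list as a whole, 17.9% to 35.7% against 7.97% to 11.4%, and the part of CTCF-bound sites in these shares was not tested.

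Whether the C/EBP windows gained or lost peak pairs with BCL9 knockdown was tested by exact two-sided permutation of NS and BCL9-KD labels, with 5 libraries for each antibody. There are 10 assignments, so no p can go below 0.1. For pSTAT3, CEBPA had 0.667 ± 0.310 peak pairs per 10000 in NS (n = 3) and 0.583 ± 0.00748 in BCL9-KD cells (n = 2, exact p = 0.8). CEBPB had 1.52 ± 0.296 and 1.40 ± 0.0602 (n = 3 and 2, exact p = 0.9). CEBPD had 0.345 ± 0.210 and 0.369 ± 0.0912 (n = 3 and 2, exact p = 0.9). For these genes the conditions overlapped, as they did not in 12.9% of all windows with BCL9-KD above NS and in 7.98% with BCL9-KD below, and the difference was smaller than the spread between NS libraries.

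CEBPG was the exception for pSTAT3. Its values were 0.336, 0.203 and 0.374 per 10000 in NS and 0.602 and 0.608 in BCL9-KD cells, which do not overlap. The difference was 0.300 with an exact p of 0.1, the smallest possible, and an adjusted p of 0.974 over all windows tested. Both BCL9-KD libraries lay above all NS libraries in that same 12.9% of all windows, so 1 such gene of 4 is not set apart from the background. Outside the stretch shared with CEBPA, the NS libraries had 0, 0 and 4 peak pairs and the BCL9-KD libraries 14 and 13. The means per 10000 there were 0.0356 and 0.300 (exact p = 0.1). Among the 24728 strongest peak pairs of each list no pSTAT3 library had any at CEBPG, so the difference lies in weaker peak pairs.

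For BCL9, CEBPA had 0.677 ± 0.286 in NS and 1.06 ± 0.573 in BCL9-KD cells (n = 3 and 2, exact p = 0.5). CEBPB had 1.20 ± 0.884 and 1.75 ± 0.334 (exact p = 0.5, n = 3 and 2). CEBPG had 0.295 ± 0.273 and 0.566 ± 0.0866 (exact p = 0.3, n = 3 and 2), and CEBPD 0.389 ± 0.356 and 0.350 ± 0.0513 (exact p = 0.9). Outside the stretch shared with CEBPA, the CEBPG means were 0.206 in NS and 0.209 in BCL9-KD cells. The conditions overlapped for all 4 genes, where 18.6% of all windows had both BCL9-KD libraries above all NS libraries and 4.7% had both below. The lists were also cut to the 24728 strongest BCL9 peak pairs, with ties in tags at the cut broken at random. CEBPG then had 0, 0 and 0 in NS and 2 and 2 in BCL9-KD cells, a pattern found in that direction in 5.54% of windows. The 1 CEBPG peak pair of NS replicate 1, with 5 tags, stood in such a tie and was dropped. In BCL9-KD replicate 1 its peak pairs with 10 tags stood in a tie as well. At equal length CEBPB had 1, 1 and 6 in NS and 3 and 14 in BCL9-KD cells, which overlap. The knockdown effect did not differ detectably between the antibodies for CEBPA, CEBPB, CEBPD or CEBPG (exact permutation within each antibody, 100 assignments, p = 0.29, 0.37, 0.87 and 0.93).

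Over the whole lists, no difference between the antibodies at a C/EBP window passed the test. The pSTAT3 minus BCL9 differences over 5 libraries each were -0.196 for CEBPA, 0.0499 for CEBPB, -0.0193 for CEBPD and 0.0208 for CEBPG per 10000 (exact permutation p = 0.389, 0.865, 0.897 and 0.849). Without the single-run NS libraries the CEBPA difference was -0.411, with an unadjusted exact permutation p of 0.0286 and an adjusted p of 0.32. No protein-coding window passed an adjusted p of 0.05 (0% called) in these exact permutation tests of antibodies or conditions. Between the antibodies 2888 of 20062 windows had an unadjusted p under 0.05, and 905 reached the smallest possible p of 0.00794, where 3185 would be needed for a call after adjustment. With all libraries, none of the 4 genes was among the 2888. The 24728 strongest peak pairs of each list were also compared, with ties at the cut broken at random. CEBPA then had 0, 1 and 0 pSTAT3 peak pairs in NS and 0 and 0 in BCL9-KD cells. For BCL9 it had 1, 2 and 5, then 8 and 2. This pSTAT3 minus BCL9 difference of -1.37 per 10000 had an unadjusted exact permutation p of 0.0159 and an adjusted p of 0.156 over all windows. The antibodies differ in list length and in tags per rank, and these differences cannot be told apart from the antibody.

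The regions of the C/EBP genes were searched for the strings given above in their central 100 bp. The C/EBP strings were in 0 of 15 NS and 0 of 24 BCL9-KD pSTAT3 regions of the 4 genes, where 1.19% and 1.13% of all such regions held one. The AP-1 string was in 7 of 15 NS and 5 of 24 BCL9-KD pSTAT3 regions, where 31.4% and 29.7% of all regions held it. The TEAD string was in 2 of 15 and 4 of 24, against 10.7% and 9.57%, and the STAT string in none, against 3.73% and 3.71%. Of the 2 NS and 6 BCL9-KD BCL9 regions, 1 and 2 held the AP-1 string, against 17.7% and 19.1%. The NS BCL9 region at -26.7 kb of CEBPB was the one region of these sets with the STAT string in its central 100 bp. In the central 200 bp, 1 of the 15 NS pSTAT3 regions also held it, at CEBPB. The stretch shown for -26.7 kb does not include the STAT match. These numbers are small, and a region without a match lacks only these letters.

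Other genes of the C/EBP pathway were counted by the same rule. Of 9 further family members and partners, 5 had a co-occurring region in NS and 6 in BCL9-KD cells, beside 29% and 43% of all windows. BATF and BATF2, leucine zipper factors of immune cells, had 1 region each in NS cells. TRIB1 and TRIB2, pseudokinases that direct the degradation of C/EBP-alpha, had 2 and 7. Of 13 genes known as C/EBP targets, 10 had one in NS and 12 in BCL9-KD cells. LCN2 (lipocalin 2) and CSF3 (granulocyte colony-stimulating factor) had 1 each in NS cells, and the chemokine genes CXCL8 and CXCL1 had 4 and 2. Neighbours such as S100A8 and S100A9 share regions, so genes of the list are not independent. At equal list length the counts in NS cells were 3 of 9 and 7 of 13, where 13.8% of all windows had a co-occurring region, and in BCL9-KD cells 3 of 9 and 3 of 13, where 9.70% had one.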

How the data were processed

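ChIP-exo peak pairs of 11 libraries were used. Per the labels, 3 NS and 2 BCL9-KD libraries were made for each of pSTAT3 and BCL9, and 1 NS library for CTCF. The deposited value of a peak pair is a signal, computed by the authors per library; divided by the library's step it gave whole tags (lowest 3 to 9 per list). Processing notes of the submitters list bcl2fastq and hg19, while the aligner and the origin of the step are not stated. The study's methods name ChExMix for its calls, whereas the lists carry the tag of a peak-pairing program. Read totals were not used, so a list's length does not stand for depth and no counting interval is given.

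Gene bodies came from GENCODE v44 lifted to GRCh37, and sequence from the GRCh37 reference, whose coordinates are those of hg19. Windows reached 50 kb from the gene. Windows of all 20090 protein-coding genes were tested, with Benjamini-Hochberg adjustment over windows with at least 1 peak pair, and genes were compared by sign flips over libraries. Regions merged 100 bp windows. The regions described were taken from those within 1 kb of a member's start, the 5 best ranked per antibody in NS cells, and, chosen after their values were seen, those found in 6 or more libraries, those first called after knockdown, and the CTCF peak pairs. Not every region of these sets is described, among them that at +49.4 kb of CEBPB, found in 6 libraries. Other lists name up to 4 genes in list order. The members, lists and strings were chosen with earlier results of these data known. The program was tested on simulated lists. Python 3.11.15, numpy 2.4.6, pandas 2.3.3 and matplotlib 3.10.9 were used.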

Additional observations from a re-analysis of the deposited data

How the results depend on the processing

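The alternatives were lists cut to the 24728 strongest peak pairs, a minimum of 9 tags, windows reaching 20 or 100 kb, summed tags, omission of single libraries or of the single-run NS libraries, and a replicate block. Ties in tags at the cut of the lists were broken at random. The window of CEBPG without its shared stretch was added after seeing the data and gave a knockdown minus control difference of 0.265 for pSTAT3, against 0.300 with the whole window. For BCL9 it gave 0.00281, against 0.271. The knockdown comparisons cannot reach a p of 0.05 and so made no calls under any setting. No antibody difference passed an adjusted p of 0.05. The cause of each change below was not tested, except that settings which keep fewer peak pairs or accept single libraries change counts by construction. A reach of 100 kb also lengthens, by construction, the stretch that the windows of CEBPA and CEBPG share.

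For knockdown minus control in pSTAT3 (peak pairs per 10000), CEBPA was 0.0429 with 9 tags, 0.207 at 100 kb and 0.086 without single-run controls. CEBPB was 0.202 at equal length, 0.0589 at 20 kb, 0.0914 with summed tags and 0.05 without single-run controls. CEBPD was -0.27 at equal length, -0.321 with 9 tags and -0.0682 with summed tags. CEBPG was 0 at equal length, where no list had a peak pair. Leaving out single libraries gave -0.216 to 0.086 for CEBPA, -0.233 to 0.05 for CEBPB, -0.095 to 0.105 for CEBPD and 0.25 to 0.335 for CEBPG. The signs of CEBPA and CEBPB turned without NS replicate 1, and that of CEBPD without BCL9-KD replicate 1 or NS replicate 3. In BCL9, CEBPB was -0.238 and CEBPD 0.23 at 100 kb, and CEBPD 0.115 without single-run controls. Leaving out single libraries gave -0.0233 to 0.788 for CEBPA, 0.153 to 1.03 for CEBPB, -0.234 to 0.115 for CEBPD and 0.123 to 0.392 for CEBPG. CEBPA turned without BCL9-KD replicate 1, and CEBPD without NS replicate 1 or 3.

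For pSTAT3 minus BCL9, CEBPB was -0.0186 at 20 kb, -0.196 at 100 kb, -0.139 without single-run controls and -0.351 in knockdown libraries only. CEBPD was 0.115 at 100 kb, 0.045 without single-run controls and 0.0185 in knockdown libraries only. CEBPA was -0.411 without single-run controls. CEBPG was -0.324 at equal length, -0.0198 with 9 tags, -0.0891 at 20 kb, -0.235 at 100 kb and -0.0197 with summed tags. Leaving out single libraries gave -0.317 to -0.0377 for CEBPA, -0.204 to 0.232 for CEBPB, -0.113 to 0.0616 for CEBPD and -0.0802 to 0.0767 for CEBPG. CEBPB turned without NS pSTAT3 replicate 1 or NS BCL9 replicate 1 or 2, CEBPD without NS pSTAT3 replicate 3 or NS BCL9 replicate 1 or 3, and CEBPG without either BCL9-KD pSTAT3 replicate or NS BCL9 replicate 2.

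Between genes, CEBPA minus CEBPB was 0.385 at 20 kb. CEBPA minus CEBPD was 0.469 at equal length (exact p = 0.125) and 0.452 at 20 kb (exact p = 0.131), and CEBPB minus CEBPD 0.0675 at 20 kb, all past the threshold no longer. CEBPA minus CEBPG was 0.0119 at 100 kb (exact p = 0.127). CEBPD minus CEBPG was 0.131 at equal length, 0.252 at 20 kb and, with an exact p of 0.00781, -0.175 at 100 kb. Leaving out single libraries gave -0.829 to -0.645 for CEBPA minus CEBPB, 0.276 to 0.369 for CEBPA minus CEBPG, 0.995 to 1.14 for CEBPB minus CEBPD, 0.975 to 1.11 for CEBPB minus CEBPG and -0.0639 to 0.00665 for CEBPD minus CEBPG. The range of CEBPA minus CEBPD was 0.269 to 0.432, with an exact p of 0.0508 without NS pSTAT3 replicate 1 or 3, NS BCL9 replicate 2 or BCL9-KD BCL9 replicate 1.

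Co-occurring regions in NS cells numbered, at CEBPA, 0 at equal length, 1 with 9 tags, 1 with 200 bp windows, 5 with regions of any library, 1 with regions in every library and 1 without single-run controls. At CEBPB they numbered 0 at equal length, with 9 tags, with regions in every library and without single-run controls, and 11 with regions of any library. With regions of any library CEBPD had 1 and CEBPG 3, where 69.8% of all windows had at least 1. In BCL9-KD cells CEBPA had 0 at equal length and with 9 tags, and 5 with regions of any library. CEBPB had 1 at equal length, 4 with 200 bp windows and 15 with regions of any library. CEBPD had 1 with 200 bp windows and 5 with regions of any library, and CEBPG 0 at equal length and with 9 tags, and 8 with regions of any library, where 85.6% of all windows had at least 1. At equal length 13.8% of all windows had one in NS and 9.70% in BCL9-KD cells, and with 9 tags 14.5% and 23.3%. Without single libraries the NS counts were 0 to 2 at CEBPA, 0 to 1 at CEBPB and 0 at CEBPD and CEBPG, and the BCL9-KD counts 2 to 4, 2 to 6, 0 to 1 and 1 to 3. In the central 200 bp the AP-1 string was in 9 of 24 BCL9-KD pSTAT3 regions, against 42.0% of all such regions.

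The labels number the replicates alike. Same-numbered NS pSTAT3 and BCL9 libraries correlated in their deviations from the group means at 0.206, 0.0449 and 0.485. For NS against BCL9-KD the values were 0.098 and -0.0112 in pSTAT3 and 0.246 and -0.327 in BCL9. The numbers were therefore not taken as pairs, and not every library correlated best with its own number. With a replicate block, knockdown minus control for CEBPD was -0.095 in pSTAT3 and 0.00154 in BCL9. Neither design can call a knockdown difference, and the antibody differences had exact p of 0.438 to 0.938 with the block.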
